A study of Caenorhabditis elegans with 66 samples.

Results

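Loss of snpc-1.3 in Caenorhabditis elegans was examined in L4 larvae, at 48 h. Set against each other were 3 small RNA libraries of snpc-1.3(-) worms and 3 libraries of wild type, labelled N2. These are 6 of the 54 libraries of the series that have a count column, and every one of the 17114 piRNA loci in the deposited count table was included, whatever its level. Both groups are whole worms from the set that the labels name A. The labels describe the mutant as a null and give no allele, and they do not say whether replicates were separate cultures, so p-values measure the spread between these libraries. The tables hold piRNAs alone, so neither the snpc-1.3 transcript nor any tissue marker could be read. Other groups describe the same loci below, and those of set A also entered the filter, the scaling and the estimate of spread behind the 48 h calls. From set A they are snpc-1.3(-) at 72 h (gravid adults), snpc-1.2(-) at 48 h and wild type at 72 h. snpc-1.2(-) at 72 h, also of set A, entered the fit and is not described. From set B they are a mutant of both genes (snpc-1.2(-); snpc-1.3(-), called the double mutant), prg-1(-), mut-16(-) and hrde-1(-) at 48 h, and wild type at 48 h and 72 h.

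In C. elegans, piRNAs are short germline RNAs that nearly always begin with U and are bound by the Argonaute PRG-1, which uses them to recognise foreign and some endogenous transcripts. Each is processed from its own small transcript, and most of these genes lie in clusters on chromosome IV, where the SNAPC-related protein SNPC-4 and its partner PRDE-1 are needed for their transcription. SNPC-1.3 is related to the SNAPC1 subunit of the same kind of complex and is known for its role in piRNAs of the male germline. Hermaphrodites make sperm around the L4 stage and oocytes as adults, and sets of piRNAs particular to each germline are known.

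The sequences below are those on which the description turns, as deposited, 5′ to 3′ and with T for U. Capitals mark bases 2 to 8, the seed by which a piRNA first pairs with a target. The first 4 are piRNAs that were lower in snpc-1.3(-). The next 5 were higher, and include a pair listed 1 base apart and a pair with one seed. 21ur-1793 was abundant in both groups and not called, and the last 3 lie on other chromosomes.
21ur-6881: tTGATCTGatagaatgtcatc
21ur-669: tTGTCGATcttttgaattctt
21ur-1059: tGCAACGTattgacctgaata
21ur-2424: tGTGCATTcactgtaatcaac
21ur-2235: tTAGATAGagactgcatgatt
novel_21ur-1336: tAGATAGAgactgcatgattt
21ur-4375: tAGGATCTattttaatttttt
21ur-2290: tAGGATCTctgctctgttgag
21ur-5504: tCTTGAACggctaggatcact
21ur-1793: tACAACGTagagtactgaact
21ur-10492: gAGTTTTTctcgtcgatcgaa
21ur-10824: gTTTTGAAtaaagtttgctga
21ur-12557: gATTCTCTcatctatcttctt
The 28 named piRNAs whose sequence was read have 27 distinct seeds. The shared one is AGGATCT of 21ur-4375 and 21ur-2290, which were both higher in snpc-1.3(-) and differ after the seed. The sequences on chromosomes II, III and V begin with g, unlike those printed from chromosome IV.

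At 48 h the snpc-1.3(-) worms had fewer piRNA counts, spread over fewer loci. The libraries held 747474, 677031 and 780009 piRNA counts in snpc-1.3(-), against 1051183, 1168689 and 991218 in wild type. The groups did not overlap, and the snpc-1.3(-) mean was 68.7% of the wild-type mean (exact two-sided permutation p 0.1, the smallest that 3 against 3 libraries can give). A sum of piRNA counts is not the depth of a library, and no correction for depth was possible here. Loci with at least 1 count numbered 9225 to 9521 in snpc-1.3(-), against 11199 to 12145 in wild type. Counts were also more concentrated: the 100 most abundant loci held 32.3 to 35.1% of the counts in snpc-1.3(-), against 22.9 to 23.1% in wild type. As the RNA came from whole worms, fewer cells that make a piRNA and less of it per cell cannot be told apart.

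As scaled in the main test, the piRNAs split into a large part that was strongly lower in snpc-1.3(-) and a large part that was modestly higher. Of the 17114 loci, 7611 passed the filter on low counts and were tested, and these held 98.6% of the counts in each group. edgeR's quasi-likelihood test with TMM scaling called 5899 of them (77.5% of those tested, Benjamini-Hochberg adjusted p below 0.05), of which 3474 were lower (45.6%) and 2425 higher (31.9%). The remaining 9503 loci were not tested, and 3007 loci had no count in any of the 6 libraries. A change of at least 2-fold was reached by 3357 of the lower loci (44.1% of those tested) and by 2204 of the higher loci (29.0%).

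With TMM scaling the 2 directions differed in size, and their relative size depends on the scaling, as given below. Called loci that were lower had a median log2 fold change of -4.37 (quartiles -6.1 and -2.79) as fitted. The 563 of them with no count in snpc-1.3(-) were also set to a bound from deposited counts without scaling, with a floor of 3 counts over the group. The median was then -3.98 (quartiles -5.19 and -2.76), and 462 were lower by at least 64-fold. Called loci that were higher had a median of 1.6 (quartiles 1.33 and 1.88), and 399 of them reached 4-fold and 2 reached 16-fold with the same floor for wild type. All 3 snpc-1.3(-) libraries lay beyond all 3 wild-type libraries, in deposited counts and in CPM, for 3419 of the loci called lower and for 1644 of those called higher; over all tested loci such separation was seen downward for 46.3% and upward for 21.7%. Among all tested loci, 586 had no count in any snpc-1.3(-) library. The reverse, no count in any wild-type library, was seen at 23 loci, 6 of them called higher.

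**Figure D1:**
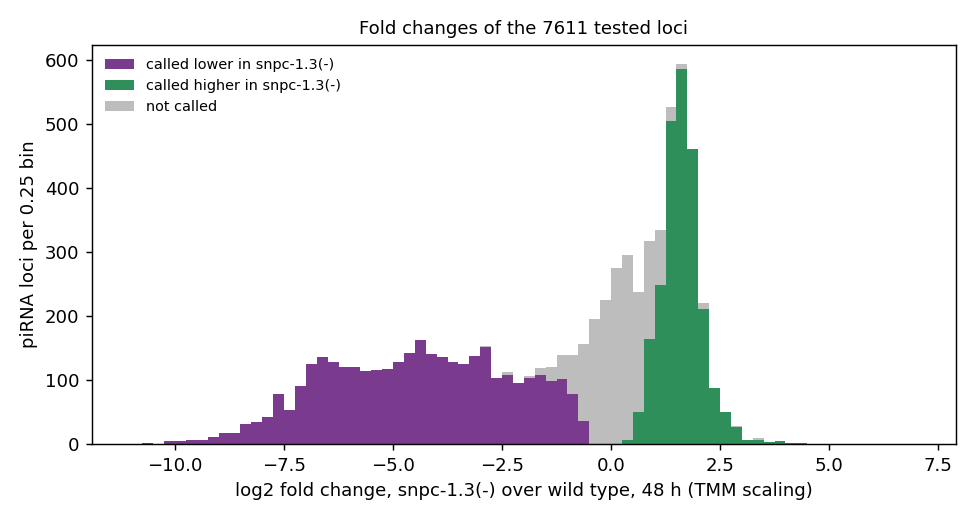
Number of tested piRNA loci (vertical axis, per 0.25 bin) by log2 fold change of snpc-1.3(-) over wild type at 48 h (horizontal axis), coloured by call. Loci with no count in a group stand at their fitted values. Loci called lower form a broad group with a median of -4.37, and loci called higher form a narrow peak with a median of 1.6.

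Where 0 falls on the fold-change scale depends on the scaling. The median over all tested loci was -0.39 with TMM, and 41.1% of the calls were upward. With the sum of piRNA counts as scaling the calls were 2549 higher and 3432 lower (median -0.29), with DESeq2 size factors 3367 higher and 3018 lower (median 0.48), and with deposited counts compared as they stand 1619 higher and 3642 lower (median -0.82). Leaving out any 1 of the 3 snpc-1.3(-) libraries changed the set of tested loci and gave 3107 to 3222 higher and 3178 to 3185 lower calls, with medians of 0.14 to 0.23. Keeping 1 locus of each group that overlaps on a strand moved TMM furthest, to 3566 higher and 2158 lower (median 1.46). Fold changes below are on the TMM scale. Their 0 is the one set by TMM and not the median over all tested loci (-0.39). Shares of a library's counts and gaps between groups of loci do not depend on the choice of scaling. Bounds from a floor of 3 counts, above and below, are instead in deposited counts without scaling. Medians and gaps that use such bounds mix both scales.

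Which loci fell and which rose followed their behaviour between larva and adult in other wild-type libraries. In wild type of set B, compared at 72 h and at 48 h, 5813 loci were tested, of which 2188 were higher at 72 h by at least 2-fold (37.6%, the 72 h-enriched class) and 2505 were lower at 72 h (43.1%, the 48 h-enriched class). These libraries are separate from the 6 compared here. Of the 2500 tested loci of the 48 h-enriched class, 2458 were lower in snpc-1.3(-) (98.3%, against 45.6% of all tested loci) and 12 were higher. Of the 2176 tested loci of the 72 h-enriched class, 1834 were higher (84.3%, against 31.9% of all) and 5 were lower.

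The 48 h-enriched class held 4.37, 4.09 and 4.14% of the piRNA counts in the snpc-1.3(-) libraries, against 49.5, 42.1 and 48.8% in wild type. The 72 h-enriched class held 70.7, 71.5 and 71.5% in snpc-1.3(-), against 24.3, 31.3 and 24.5% in wild type. The groups were far apart for both classes, the snpc-1.3(-) libraries were nearly alike, and wild type replicate 2 lay nearest to the mutant in both. The means were 4.2% ± 0.15 in snpc-1.3(-), against 46.8% ± 4.1 in wild type for the 48 h-enriched class, and 71.2% ± 0.47 in snpc-1.3(-), against 26.7% ± 4.0 in wild type for the 72 h-enriched class (SD, n = 3 each). Both differences had an exact two-sided permutation p of 0.1, the smallest possible, and 0.1 after Benjamini-Hochberg adjustment over the family of 4 such tests.

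**Figure D2:**
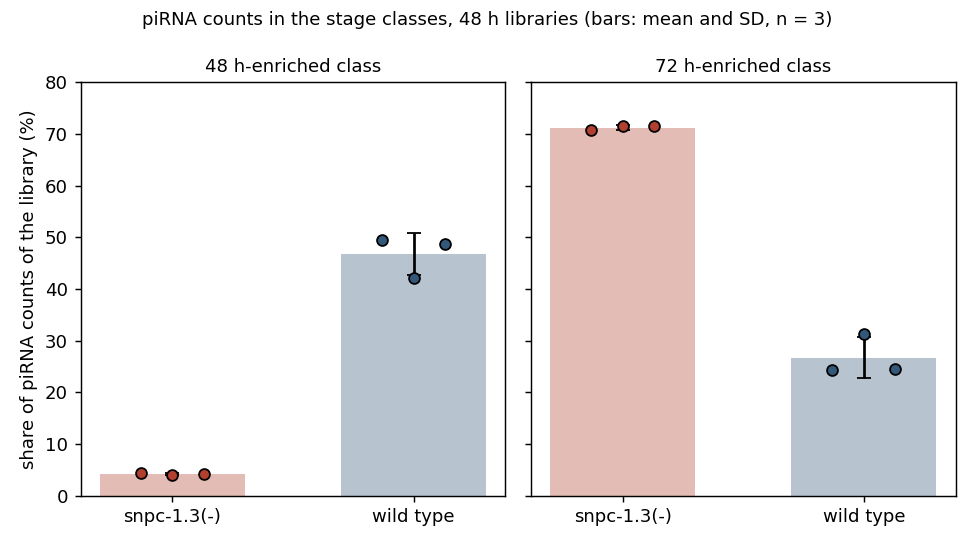
Share of each library's piRNA counts (vertical axis, %) in the 48 h-enriched class (left panel) and the 72 h-enriched class (right panel), with a point for each library and bars for the mean and SD of 3 libraries. The 48 h-enriched class averages 4.2% in snpc-1.3(-), against 46.8% in wild type, and the 72 h-enriched class 71.2% in snpc-1.3(-), against 26.7% in wild type.

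In deposited counts the fall of the first class was much larger than the gain of the second. The 48 h-enriched class summed to 32651, 27710 and 32284 counts in snpc-1.3(-), against 519840, 491623 and 483464 in wild type, which is 6.2% of the wild-type mean. The 72 h-enriched class summed to 528167, 483833 and 557488 counts in snpc-1.3(-), against 255506, 365711 and 242651 in wild type, which is 182%. The groups did not overlap in either sum (exact permutation p 0.1 for both). The median log2 fold change was 1.51 in the 72 h-enriched class and -4.59 in the 48 h-enriched class. The gap between these medians was 6.1 and stayed between 5.53 and 6.36 under every scaling, filter, test and left-out library tried. Which class changed more did depend on the scaling. With DESeq2 size factors in edgeR the medians were 2.41 in the 72 h-enriched class and -3.7 in the 48 h-enriched class. With 1 locus per overlapping group under TMM they were 3.53 and -2.59. With loci at 0 set to their bounds the median of the 48 h-enriched class was -4.45 and the gap 5.96.

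The relation was graded. Loci that fell by more than 3 on the log2 scale between 48 h and 72 h in set B wild type had a median log2 fold change of -5.83 in snpc-1.3(-), and 798 of these 809 loci were lower; with loci at 0 set to their bounds the median was -5.27. The median was -4.7 for a set B change between -3 and -2, -2.42 between -2 and -1, -0.85 between -1 and 0, and 0.23 between 0 and 1. It was 1.36 between 1 and 2 and 1.65 between 2 and 3, where 845 of 907 loci were higher (93.2%) and 0 were lower. Above that it did not rise further: between 3 and 4 the median was 1.55, with 69 of 94 loci higher (73.4%) and 1 lower. For the 23 loci that were higher at 72 h by 4 or more on the log2 scale the median was 0.03, 0 were called higher and 1 was called lower.

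**Figure D3:**
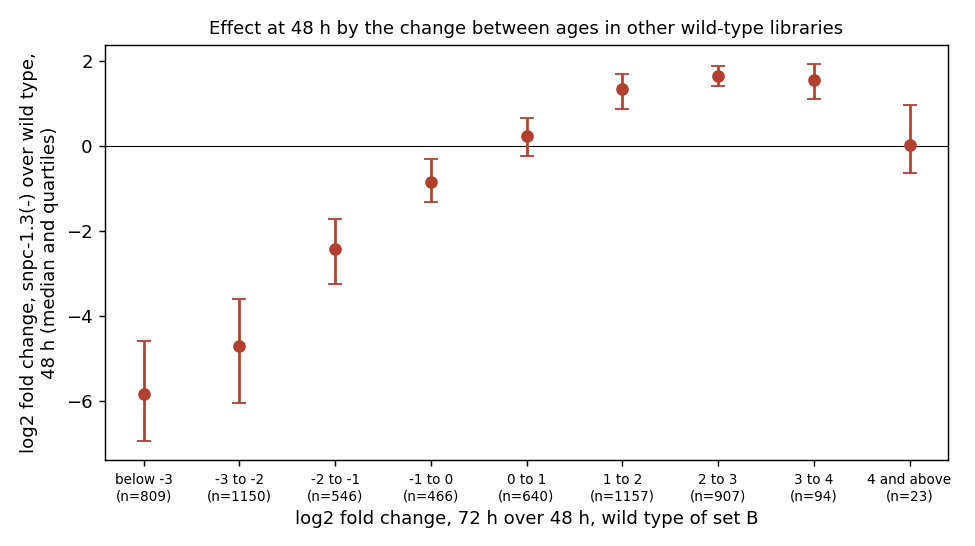
Median log2 fold change of snpc-1.3(-) over wild type at 48 h with its quartiles (vertical axis) for loci binned by their log2 fold change of 72 h over 48 h in set B wild type (horizontal axis, number of loci below each bin). The median is -5.83 in the lowest bin, 1.65 between 2 and 3, 1.55 between 3 and 4, and 0.03 in the last bin, which holds 23 loci.

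Few loci went against their class. The 5 loci of the 72 h-enriched class that were lower all have unannotated names and lie outside chromosome IV; they were named after their values were seen. novel_21ur-0105 on chromosome I had 0 counts in each snpc-1.3(-) library, against 19, 9 and 17 in wild type. In deposited counts with a floor of 3 over the group, that is at least 15.0-fold lower. novel_21ur-1611 on chromosome V had 9, 10 and 16 counts in snpc-1.3(-), against 35, 27 and 29 in wild type. The other three, novel_21ur-1690, novel_21ur-0378 and novel_21ur-1486, averaged under 3 counts in snpc-1.3(-). Of the 12 loci of the 48 h-enriched class that were higher, 9 have unannotated names. The most abundant of the 12 in snpc-1.3(-), novel_21ur-0820 in the small cluster of chromosome IV, had 94 counts in each snpc-1.3(-) library, against 36, 39 and 26 in wild type (log2 fold change 1.93, SE 0.38, edgeR adjusted p 7.3e-06). The most abundant with an annotated name, 21ur-4963, had 80, 87 and 88 counts in snpc-1.3(-), against 52, 74 and 72 in wild type.

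Several abundant piRNAs of wild-type larvae were nearly lost, of which the most abundant was 21ur-6881. 21ur-6881 (WBcel235, IV:16374700-16374720, plus strand, outside annotated genes) had 38, 36 and 34 counts in snpc-1.3(-), against 5157, 5378 and 4696 in wild type. The snpc-1.3(-) libraries were alike and far below wild type, at 0.709% of its mean, and the difference was called (log2 fold change -6.69, SE 0.28, edgeR adjusted p 6.5e-36). 21ur-669 (IV:16575752-16575772, minus strand, in Y51H4A.8 on the same strand and outside its exons) had 63, 67 and 55 counts in snpc-1.3(-), against 3710, 3460 and 3187 in wild type. Its groups were as clearly apart (log2 fold change -5.36, SE 0.26, edgeR adjusted p 6.4e-33).

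The others of the 8 most abundant lower piRNAs were 21ur-3822, 21ur-1660, 21ur-7999, 21ur-5897, 21ur-7073 and 21ur-1059, all in the large cluster of chromosome IV. The 5 besides 21ur-1059 kept 0.747% (21ur-5897) to 5.68% (21ur-7073) of their wild-type counts. 21ur-5897, in srt-49 outside its exons on the same strand, had 27, 16 and 16 counts in snpc-1.3(-), against 2875, 2690 and 2331 in wild type. 21ur-1059 (IV:15207886-15207906, minus strand, antisense to an exon of a pseudogene) kept the most, with 626, 535 and 898 counts in snpc-1.3(-), against 3058, 3103 and 3520 in wild type. That is 21.3% of the wild-type mean (log2 fold change -1.82, SE 0.21, edgeR adjusted p 2e-12; 0.21 and not called with 1 locus per overlapping group under TMM). It is also the 1 of these 8 that was in neither stage class, with a log2 fold change of -0.77 between 72 h and 48 h in set B.

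Other abundant loci went to zero. 21ur-2424 (IV:14639380-14639400, minus strand, antisense to srlf-27 outside its exons) had 0 counts in each snpc-1.3(-) library, against 223, 321 and 228 in wild type. In deposited counts with a floor of 3 over the group it was at least 257-fold lower (edgeR adjusted p 2e-25, from the TMM-scaled test). The loci that follow have bounds of the same kind. 21ur-8098 (IV:6255607-6255627, plus strand, antisense to the neuropeptide gene nlp-16 outside its exons) likewise had 0 in snpc-1.3(-), against 238, 240 and 222 in wild type, at least 233-fold lower. 21ur-7794 (IV:15866574-15866594, plus strand) had 0 in snpc-1.3(-), against 221, 259 and 181 in wild type, at least 220-fold lower. All 3 belong to the 48 h-enriched class, and 21ur-8098 is the 1 of them in the small cluster.

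Among the higher piRNAs, the most abundant rose about as much as the class as a whole. 21ur-2235 (IV:16629788-16629808, plus strand, outside annotated genes) had 6098, 7290 and 7810 counts in snpc-1.3(-), against 2394, 3727 and 2221 in wild type. The groups did not overlap, and its log2 fold change was 1.82 (SE 0.19, edgeR adjusted p 1.1e-14). novel_21ur-1336, listed 1 base downstream, had nearly equal counts in every library, with 6056, 7256 and 7782 in snpc-1.3(-) and 2386, 3710 and 2214 in wild type. The printed sequences overlap in all but 1 base at each end. Of 925 pairs of loci listed 1 base apart with at least 100 counts in the larger, 113 had counts within 10% of each other (12.2%), and whether this pair shares reads was not tested. 21ur-4375 (IV:14126024-14126044, minus strand) had 6789, 6455 and 6125 counts in snpc-1.3(-), against 2153, 5675 and 2460 in wild type. Wild type replicate 2 came close to the snpc-1.3(-) libraries there, and the log2 fold change was 1.41 (SE 0.21, edgeR adjusted p 1.2e-08).

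The other 5 of the 8 most abundant higher piRNAs were 21ur-5504, 21ur-4532, 21ur-4136, 21ur-2290 and 21ur-3363, at 162% (21ur-4136) to 264% (21ur-2290) of their wild-type counts. 21ur-5504 (IV:16041087-16041107, plus strand) had 4385, 4996 and 5866 counts in snpc-1.3(-), against 2265, 2680 and 2184 in wild type (log2 fold change 1.55, SE 0.19, edgeR adjusted p 4.9e-12). 21ur-2290 lies in hpa-1 on the same strand outside its exons, and had 2361, 4059 and 3337 counts in snpc-1.3(-), against 1123, 1353 and 1218 in wild type. All 8 were in the 72 h-enriched class.

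Among higher loci with at least 100 counts on average in snpc-1.3(-), a change of at least 2-fold and no overlap between groups, the largest gains were at 21ur-5397, 21ur-4183 and 21ur-6682. 21ur-5397 had 298, 137 and 79 counts in snpc-1.3(-), against 49, 20 and 10 in wild type, a log2 fold change of 3.12 with a wide error (SE 0.95, edgeR adjusted p 0.011). 21ur-4183 had 248, 452 and 312 counts in snpc-1.3(-), against 42, 93 and 62 in wild type (log2 fold change 2.85, SE 0.28, edgeR adjusted p 1.5e-15). 21ur-6682, the 1 named piRNA of chromosome IV that begins with c, had 185, 47 and 156 counts in snpc-1.3(-), against 18, 41 and 14 in wild type, so snpc-1.3(-) replicate 2 lay close to wild type replicate 2.

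The 2 most abundant loci that were not called and had a log2 fold change within 0.2 of 0 were high in both groups. 21ur-1793 (IV:14495458-14495478, plus strand, between exons of tag-273 on the opposite strand) had 12732, 13210 and 16227 counts in snpc-1.3(-), against 15568, 19237 and 15332 in wild type. Its groups overlapped in counts (log2 fold change 0.2, SE 0.17, edgeR adjusted p 0.29). 21ur-74 (IV:15269716-15269736, minus strand) had 9171, 8230 and 8329 counts in snpc-1.3(-), against 9657, 11802 and 9352 in wild type, with all 3 snpc-1.3(-) libraries below wild type in counts (log2 fold change 0.19, SE 0.17, edgeR adjusted p 0.32). Both were lower in snpc-1.3(-) in mean counts, at 84.1% of wild type for 21ur-1793 and 83.5% for 21ur-74, and slightly higher on the TMM scale, so the direction of differences of this size depends on the scaling. With DESeq2 size factors both were called higher, at 1.1 (edgeR adjusted p 1.6e-08 for 21ur-1793 and 2.3e-08 for 21ur-74). With equal library sizes they were -0.25 and -0.26 and not called. Over left-out libraries they ran from 0.15 to 1.0 and from 0.15 to 0.94.

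**Figure D4:**
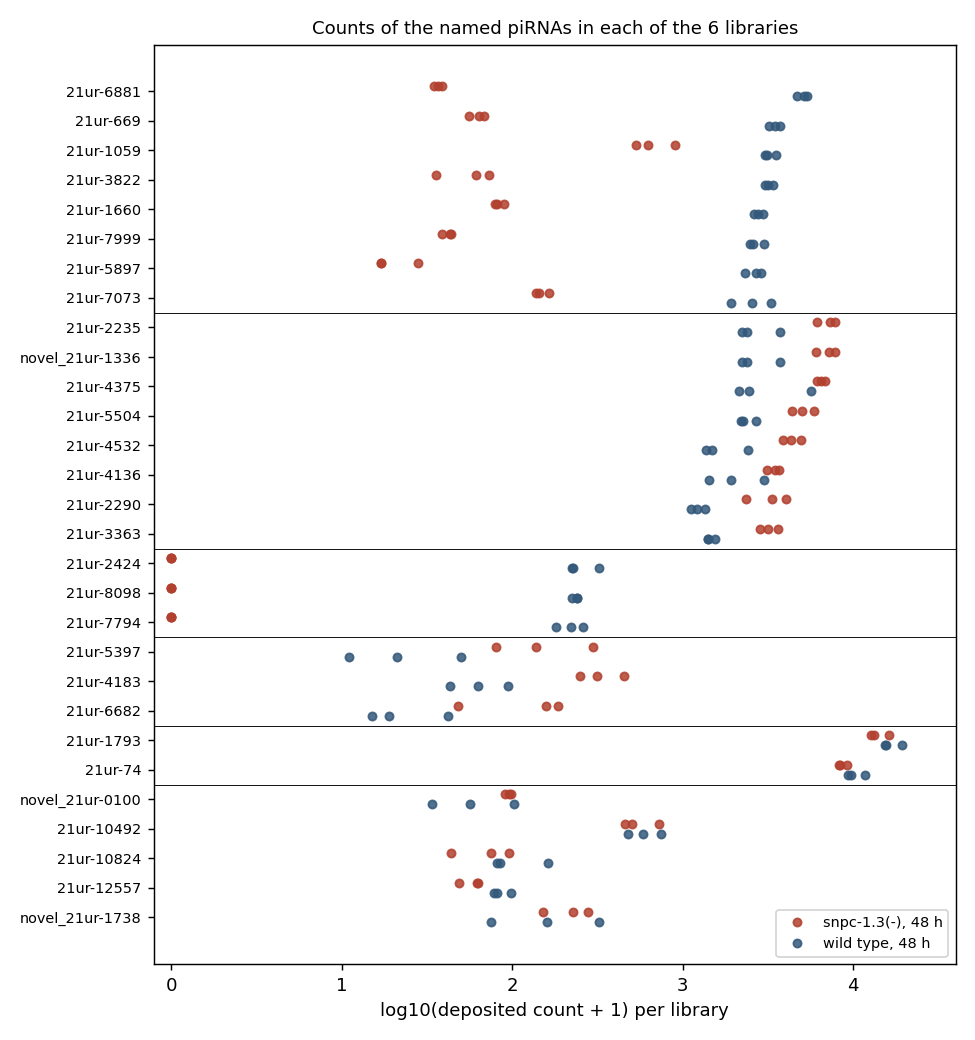
Deposited counts of the 29 named piRNAs (rows) in each of the 6 libraries (points), on a horizontal axis of log10(count + 1), with snpc-1.3(-) drawn above wild type in each row. The first 8 rows are the most abundant lower piRNAs, all 3 points of 21ur-2424, 21ur-8098 and 21ur-7794 sit at 0 in snpc-1.3(-), and the last 5 rows are the most abundant loci on chromosomes I, II, III, V and X.

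Most calls were made on chromosome IV. On the other chromosomes 582 of 726 tested loci were not called (80.2%), 28 were lower (3.86%) and 116 higher (16.0%). Their summed counts were 9098, 7727 and 9809 in snpc-1.3(-), against 9724, 8655 and 9852 in wild type. These groups overlapped, at 94.3% of the wild-type mean (exact permutation p 0.6). As a share of each library's piRNA counts they rose without overlap. They held 1.22, 1.14 and 1.26% in snpc-1.3(-), against 0.925, 0.741 and 0.994% in wild type (exact permutation p 0.1, the smallest possible). On chromosome IV 3446 of 6885 tested loci were lower (50.1%) and 2309 higher (33.5%). Loci on the other chromosomes were also low, with a mean of 11.0 counts per locus in snpc-1.3(-), against 11.8 in wild type, against 104.1 in snpc-1.3(-), against 152.1 in wild type on chromosome IV, and whether depth accounts for the lower share of calls was not tested.

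Within chromosome IV, the share of lower loci was larger in the small than in the large cluster. In the small cluster (IV:4500000-7000000) 716 of 1176 tested loci were lower (60.9%) and 292 higher (24.8%), with a median log2 fold change of -2.57. In the large cluster (from 13000000 to the end of the chromosome) 2684 of 5555 were lower (48.3%) and 1991 higher (35.8%), with a median of -0.55. The small cluster held 7.53, 7.29 and 7.75% of the counts in snpc-1.3(-), against 10.3, 9.98 and 10.3% in wild type. The large cluster held 90.8, 91.2 and 90.6% in snpc-1.3(-), against 88.3, 88.8 and 88.2% in wild type. Neither pair of groups overlapped (exact permutation p 0.1 for each, the smallest possible). In counts the small cluster stood at 50.9% of wild type and the large cluster at 70.5%.

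Within each cluster both directions were found throughout. In bins of 0.5 Mb the lower share ran from 45.4 to 78.3% in the small cluster, and from 42.7 to 62.2% in the large one, leaving out a bin with 5 loci. It was highest at the far end of each cluster, with 65 of 83 loci lower in IV:6500001-7000000 and 138 of 222 in IV:17000001-17500000. In IV:15500001-16000000, 379 loci were lower and 380 higher. Of neighbours on the same strand whose starts were 21 to 100 bases apart, 41 of 81 called pairs had the same direction (50.6%), against 52.0% for pairs of called loci taken regardless of position. The share was 395 of 758 over 100 and up to 300 bases (52.1%), 615 of 1091 over 300 and up to 1000 bases (56.4%) and 250 of 418 over 1000 and up to 5000 bases (59.8%). On opposite strands it was 43.5, 44.0, 54.5 and 56.6% over the same distances. These shares are descriptions with no test. Pairs on the same strand within 20 bases, which overlap and can share reads, had the same direction in 618 of 618 cases. On opposite strands within 20 bases, 12 of 26 called pairs had the same direction (46.2%).

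**Figure D5:**
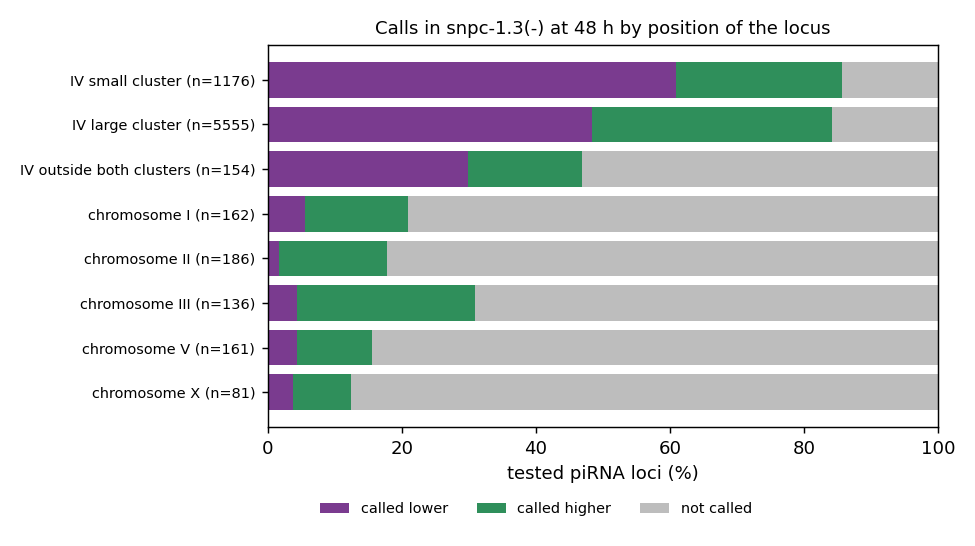
Share of tested loci (horizontal axis, %) called lower, called higher or not called in snpc-1.3(-) at 48 h, by position of the locus (rows, with the number tested). Lower calls make up 60.9% in the small and 48.3% in the large cluster of chromosome IV and at most 5.56% on any other chromosome, where 69.1 to 87.7% of loci were not called.

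The most abundant loci of the other chromosomes show small differences. 21ur-10492 (II:13247294-13247314, minus strand, opposite to the exon of F15D4.5 it overlaps) had 501, 457 and 727 counts in snpc-1.3(-), against 587, 474 and 745 in wild type, and the groups overlapped (log2 fold change 0.31, SE 0.22, edgeR adjusted p 0.21). 21ur-10824 on chromosome III, in an exon of Y54F10BM.9 on the same strand, had 74, 43 and 95 counts in snpc-1.3(-), against 80, 84 and 161 in wild type. Both kept their counts without PRG-1. In set B at 48 h, 21ur-10492 averaged 556 in prg-1(-), against 524 in wild type, and 21ur-10824 averaged 133, against 103. The loci described next averaged 0 in prg-1(-) on chromosomes V and X and 0.333 on chromosome I. Whether 21ur-10492 and 21ur-10824 are bound by PRG-1 was not tested. 21ur-12557 on chromosome V, antisense to an exon of F40D4.13, had 62, 48 and 61 counts in snpc-1.3(-), against 81, 77 and 97 in wild type, where all 3 snpc-1.3(-) libraries were lower and the difference was not called (edgeR adjusted p 0.64). novel_21ur-1738 on chromosome X lies on the strand of the microRNA gene cel-mir-8196b and overlaps it, and whether its reads are those of the microRNA was not tested; it had 228, 278 and 151 in snpc-1.3(-), against 160, 324 and 74 in wild type. novel_21ur-0100 on chromosome I was called higher, with 97, 90 and 95 counts in snpc-1.3(-), against 56, 102 and 33 in wild type (log2 fold change 1.04, SE 0.29, edgeR adjusted p 0.00085), although its groups overlapped in counts and the call was lost with equal library sizes.

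Calls also differed in number by annotation, by an amount that varied with position. Of 6273 tested loci with annotated names 51.3% were lower and 33.4% higher, whereas of 1338 with unannotated names 19.2% were lower, 24.4% higher and 56.4% not called. Within the large cluster the name classes were closer, with 48.9% of 5139 annotated and 41.3% of 416 unannotated loci lower. Within the small cluster 62.8% of 1062 annotated and 43.0% of 114 unannotated loci were lower. On chromosome IV outside both clusters they were far apart, with 69.2% of 52 annotated and 9.8% of 102 unannotated loci lower. Loci in introns of protein-coding genes (2247 tested) were lower in 52.7% and those outside genes (4449 tested) in 46.3%. Loci in exons of protein-coding genes (634 tested) were not called in 59.9%. Strand made little difference, with 44.8% lower on the plus and 46.5% on the minus strand.

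The sequences themselves differed little between the directions. The first base was T in 98.4% of loci called lower, 98.1% of those called higher and 98.6% of those not called. Mean GC content was 34.4% in lower, 34.3% in higher and 36.3% in not called loci. Over all positions and bases the largest difference between lower and higher loci was in T at position 12, at 45.6% of lower and 40.1% of higher loci. Loci that were not called had T at position 2 in 48.9%, against 33.5% of lower and 35.6% of higher loci. These are descriptions with no test.

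The same loci were followed in genotypes of set B at 48 h, whose libraries took no part in the calls. The loci called lower summed to 6558, 3468 and 6166 counts in the double mutant, against 498912, 479339 and 515290 in wild type of set B, or 1.08%. The loci called higher summed to 5876, 3024 and 5519 counts in the double mutant, against 289332, 190920 and 213885 in wild type, or 2.08%. Both lists were thus nearly empty where snpc-1.2 was lost as well. The loci not called summed to 10.6% of wild type, and all tested loci to 2.76%.

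In prg-1(-), which lacks the piRNA Argonaute, loci called lower kept 0.179% of their summed wild-type counts, those called higher 0.465% and those not called 3.55%. All tested loci kept 0.756%. The loci not called held 66.6% of the prg-1(-) piRNA counts and 14.6% of those in wild type. In hrde-1(-), which lacks a nuclear Argonaute of the secondary small RNA pathway, the 3 lists stood at 102, 101 and 101% of wild type, and all tested loci at 101%. In mut-16(-), which lacks a protein needed for secondary small RNAs, the lists stood at 123, 166 and 136%, and all tested loci at 137%. These are sums of deposited counts with no correction for depth. For loci called higher, the mut-16(-) sums (525171, 285940 and 343702) overlapped wild type (289332, 190920 and 213885). Those of the other lists did not.

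In set A, snpc-1.2(-) at 48 h was compared with the same 3 wild-type libraries, so the comparisons share their controls and are given side by side. In snpc-1.2(-) the loci called lower without snpc-1.3 summed to 84.4% of wild type, against 11.0% in snpc-1.3(-). The loci called higher without snpc-1.3 summed to 20.2% of wild type in snpc-1.2(-), against 189% in snpc-1.3(-). All tested loci summed to 64.1% in snpc-1.2(-) and 68.7% in snpc-1.3(-). Of the 2425 loci called higher without snpc-1.3, edgeR called 2254 lower in snpc-1.2(-) (92.9%, against 56.2% of all tested loci), with a median log2 fold change of -5.15. Of the 3474 loci called lower without snpc-1.3, edgeR called 1155 lower in snpc-1.2(-) too (33.2%, against 56.2% of all tested loci), with a median log2 fold change of -0.62. 21ur-5504 averaged 5.33 counts in snpc-1.2(-). 21ur-6881 averaged 4580 and was also called lower in snpc-1.2(-) (log2 fold change -0.59, edgeR adjusted p 0.016).

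Fewer loci were called at 72 h. There edgeR called 870 of the 7611 loci (11.4%), 21 higher (0.276%) and 849 lower (11.2%). Of the 3474 loci called lower at 48 h, 847 were lower at 72 h too (24.4%, against 11.2% of all tested loci), with a median log2 fold change of -1.28 at 72 h. Of the 2425 loci called higher at 48 h, 14 were higher at 72 h. 21ur-6881 averaged 32.3 counts in snpc-1.3(-), against 324 in wild type at 72 h (log2 fold change -3.3, SE 0.26, edgeR adjusted p 5.1e-18). 21ur-2235 averaged 7320 counts in snpc-1.3(-), against 6720 in wild type at 72 h (log2 fold change 0.2, edgeR adjusted p 0.58).

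The difference between the 72 h and the 48 h effect was itself called at 3075 loci (40.4%), positive at 1622 (21.3%) and negative at 1453 (19.1%). Of the positive differences 1612 were at loci called lower at 48 h, and of the negative ones 1446 were at loci called higher at 48 h. The 48 h libraries that chose these lists enter the difference with the opposite sign. These directions were therefore favoured in advance and are no separate evidence. The count in each direction depended on the scaling, with 966 positive and 2692 negative for DESeq2 size factors and 1635 positive and 342 negative for equal library sizes. Leaving out any 1 snpc-1.3(-) library of either age, or any 1 wild-type library at 72 h, gave 549 to 764 positive and 2863 to 3121 negative. Wild type itself changed between these ages: loci called lower in snpc-1.3(-) at 48 h held 12.1% of the counts at 72 h and 57.6% at 48 h in set B wild type, and loci called higher held 69.8% at 72 h and 26.5% at 48 h.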

How the data were processed

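Whole-worm small RNA was sequenced, per the labels after RNA 5′ polyphosphatase treatment. The deposited table gives raw counts per piRNA locus, per the file headers; a second deposited table gives batch-corrected log2 CPM for 13211 loci, with coordinates and sequences, and its log2 values entered 1 alternative. The submitters' processing notes name Trimmomatic 0.39, Bowtie 1.1.1, HTSeq, edgeR and WBcel235; settings are not given in the sources used here. 12 columns match no sample and were not used, and 12 samples were not analysed here. Of 11451 annotated loci found in the WBcel235 annotation, 11448 had equal coordinates.

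The main test was edgeR 4.0.16 (R 4.3.3) quasi-likelihood on the counts of the 18 set A libraries, with 1 mean per genotype and age, TMM, robust dispersion and filterByExpr (minimum count 10, total 15), Benjamini-Hochberg adjusted over all tested loci, and calls at adjusted p below 0.05. It was also run on simulated counts in which 200 loci were changed 4-fold, in equal numbers up and down. Far more loci changed in the real data, and unevenly, so that run cannot show whether the scaling holds here. Single values used exact permutation tests (scipy 1.17.1). DESeq2 1.42.0 and limma 3.58.1 served as alternatives. Depth is known only as piRNA counts, 677031 to 1168689 per library, which limits precision at low loci. Stage classes came from set B wild type.

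Named piRNAs were, among those called with at least 2-fold change and no overlap in counts and TMM-scaled CPM, the 8 most abundant in each direction and the 3 with the largest fold in each at a mean of at least 100 counts, the 2 most abundant not called with a log2 change below 0.2, and the most abundant on each other chromosome or with an unannotated name. Members, lists and tests were chosen with earlier results of these data known.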

Additional observations from a re-analysis of the deposited data

Results flagged for a closer look

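The effect of losing snpc-1.3 at 72 h differed from that at 48 h for 20 of the named piRNAs by edgeR's test of the difference (adjusted p below 0.05), and over all 7611 tested loci for 1622 in the positive and 1453 in the negative direction, counts that depend on the scaling as given above. Values are log2 effects at 72 h minus those at 48 h. The 20 were chosen as called at 48 h, and those 48 h values enter the difference with the opposite sign. Among piRNAs lower at 48 h, the difference was 3.39 for 21ur-6881, 3.36 for 21ur-669, 1.91 for 21ur-1059, 2.95 for 21ur-3822, 3.16 for 21ur-1660, 3.08 for 21ur-7999, 3.52 for 21ur-5897 and 3.08 for 21ur-7073. It was 7.04 for 21ur-2424 and 7.36 for 21ur-7794, fitted values that are no bound because the 48 h mutant libraries hold no count. Among piRNAs higher at 48 h, it was -1.62 for 21ur-2235, -1.62 for novel_21ur-1336, -1.06 for 21ur-4375, -1.53 for 21ur-5504, -1.35 for 21ur-4532, -1.04 for 21ur-4136, -1.54 for 21ur-2290, -1.5 for 21ur-3363, -2.23 for 21ur-4183 and -2.08 for 21ur-6682. Groups of 3 libraries are too small for a test of single outlying libraries.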

How the results depend on the processing

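Total counts, class shares and the large-cluster share kept their direction under every alternative: leaving out 1 library gave totals of 66.2 to 72.0% of wild type and share differences of -44.91 to -41.22, 43.31 to 46.81 and 2.27 to 2.62 percentage points for the 48 h-enriched class, the 72 h-enriched class and the large cluster. Under the same omissions the 48 h calls ranged from 5850 to 6400 (2221 to 3222 higher, 3178 to 3659 lower), and the called differences between ages, with 72 h libraries left out too, from 2635 to 3885 (549 to 1685 positive, 1096 to 3121 negative). Same-numbered libraries of the groups had deviations correlated at 0.051, 0.097 and 0.12. These values are low, but each library correlated best with its own number, a hint from the data only. Whether same-numbered libraries are paired was not tested, and the main test used no pairing. With the number as a block the calls were 5960. Higher calls became 4062 with no filter and 3737 with limma on the deposited log2 CPM, which test more loci. With 1 locus per overlapping group, chosen after seeing the data, lower calls became 2158; with the sum as scaling as well they were 3089. Age differences totalled 1977 with equal library sizes and 5354 with limma. Positive ones were 966 with DESeq2 size factors, 611 with no filter, 3108 with limma and 180 with 1 locus per group. Negative ones were 2692, 3446, 2246 and 3377 in these settings, 342 with equal sizes, 2659 with the DESeq2 Wald test and 2226 with all 54 libraries. Fold changes that reversed were 0.21 for 21ur-1059 (1 locus per group) and those of loci not called: with equal sizes -0.25 for 21ur-1793, -0.26 for 21ur-74 and -0.1 for 21ur-10492. For 21ur-10824 they were 0.67 with DESeq2 size factors and with its Wald test, 0.46 with no filter, 0.39 with all 54 libraries, 1.81 with 1 locus per group and -0.47 to 0.72 over left-out libraries. For 21ur-12557 the values in the same settings were 0.75, 0.75, 0.53, 0.47, 1.87 and -0.32 to 0.63. Beyond the changes in tested loci and libraries, the cause was not tested. Of the other values of the named piRNAs, 495 kept direction and side of the threshold, 32 gained a call, and novel_21ur-0100 lost its call (0.56, equal sizes). The gained calls include 21ur-1793, 21ur-74 and 21ur-10492. These stood at 1.1, 1.1 and 1.21 with DESeq2 size factors and at 2.22, 2.21 and 2.34 with 1 locus per group.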
